A study of Mus musculus with 15 samples.

Results

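The genes described here are 10 members of the p53 and BCL2 pathway, namely Trp53, Cdkn1a, Mdm2, Bax, Bak1, Bbc3, Bcl2, Bcl2l1, Bcl2l11 and Mcl1, chosen by symbol as the genes to which a probe's RefSeq accession resolves. They were 10 of the 22864 genes tested, and 19 of the 41174 probes on the array. RNA of the whole hippocampus, both hemispheres together, of male C57BL/6 mice about 2.5 months old was hybridised to 15 single-colour (Cy3) Agilent mouse arrays. Nr3c1 is the gene of the glucocorticoid receptor (GR), and Nr3c2 that of the mineralocorticoid receptor (MR). The 4 GREmx1-cre samples came from mice with a floxed GR allele crossed to Emx1-Cre, the 4 MREmx1-cre samples from mice with a floxed MR allele crossed to Emx1-Cre, and the 3 GRMREmx1-cre samples from mice in which both floxed genes were combined with Emx1-Cre. The 4 dflox samples were the controls, with both genes floxed and no Cre stated. The GREmx1-cre line is not said to carry a floxed MR gene, nor the MREmx1-cre line a floxed GR gene, so each single knockout may differ from dflox in more than the deletion. No group carried Cre without a floxed gene. Emx1-Cre recombines in the dorsal forebrain lineage, which gives rise to excitatory neurons and astroglia, whereas most interneurons, microglia and vessels of the same tissue come from other lineages. The labels do not say whether each array held 1 mouse or a pool, and the p-values measure the spread between these samples only.

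p53, the product of Trp53, is a transcription factor that is held low by the ubiquitin ligase Mdm2 and, after DNA damage and other stress, switches on genes for cell-cycle arrest such as Cdkn1a and for cell death such as Bbc3 and Bax. The BCL2 family decides at the mitochondrial outer membrane whether a cell dies: Bax and Bak1 form the pore, BH3-only proteins such as Bbc3 (PUMA) and Bcl2l11 (BIM) set it off, and Bcl2, Bcl2l1 (BCL-XL) and Mcl1 hold it back. In the hippocampus MR is held to protect neurons and GR, when strongly occupied, to endanger them.

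In these arrays, by the brightest probe of each gene, 2 of the 10 genes rose and none fell when both receptors were targeted. Bcl2, which blocks the pore, was 1.27-fold higher and Bbc3, which promotes it, was 1.25-fold higher in GRMREmx1-cre than in dflox hippocampus (adjusted p = 0.01 and 0.0169, limma). Both calls were lost with median scaling of the arrays (limma, adjusted p = 0.0918 and 0.087). A second, dimmer Mdm2 probe passed as lower in that comparison (log2 fold change -0.42, limma, adjusted p = 0.00445 over all probes). Bcl2 was also 1.29-fold higher in GRMREmx1-cre than in GREmx1-cre hippocampus (adjusted p = 0.00792). Over all genes tested, 16.3% passed in GRMREmx1-cre against dflox (11.4% higher) and 16.1% in GRMREmx1-cre against GREmx1-cre (9.23% higher), so 2 of 10 and 1 of 10 were near those shares. None of the 10 genes passed in GREmx1-cre against dflox, where 3 had an unadjusted p below 0.05 and 3.15% of all genes passed, or in MREmx1-cre against dflox, where again 3 did and 6.81% of all genes passed. None passed in GRMREmx1-cre against MREmx1-cre (2 with an unadjusted p below 0.05, 2.98% of all genes passed), in MREmx1-cre against GREmx1-cre (2, and 9.33%) or in the interaction of the knockouts (3, and 1.29%).

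The median log2 fold change of the 10 genes was -0.02 in GREmx1-cre against dflox, against 0.02 over all genes. It was -0.03 in MREmx1-cre, against 0.04 over all genes, and -0.07 in GRMREmx1-cre, against 0.03 over all genes. The log2 fold changes ran between -0.42 and 0.13 in GREmx1-cre, between -0.16 and 0.17 in MREmx1-cre and between -0.31 and 0.35 in GRMREmx1-cre. These 3 comparisons share the 4 dflox arrays. The arrays of the groups did not overlap for 3 of the 10 genes in GREmx1-cre against dflox (12.7% over all genes), for none in MREmx1-cre against dflox (13.8%) and for 3 in GRMREmx1-cre against dflox (29.4%). They did not overlap for 3 in GRMREmx1-cre against GREmx1-cre (29.8%), for 2 in GRMREmx1-cre against MREmx1-cre (17.1%) and for 1 in MREmx1-cre against GREmx1-cre (15.8%).

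**Figure D1:**
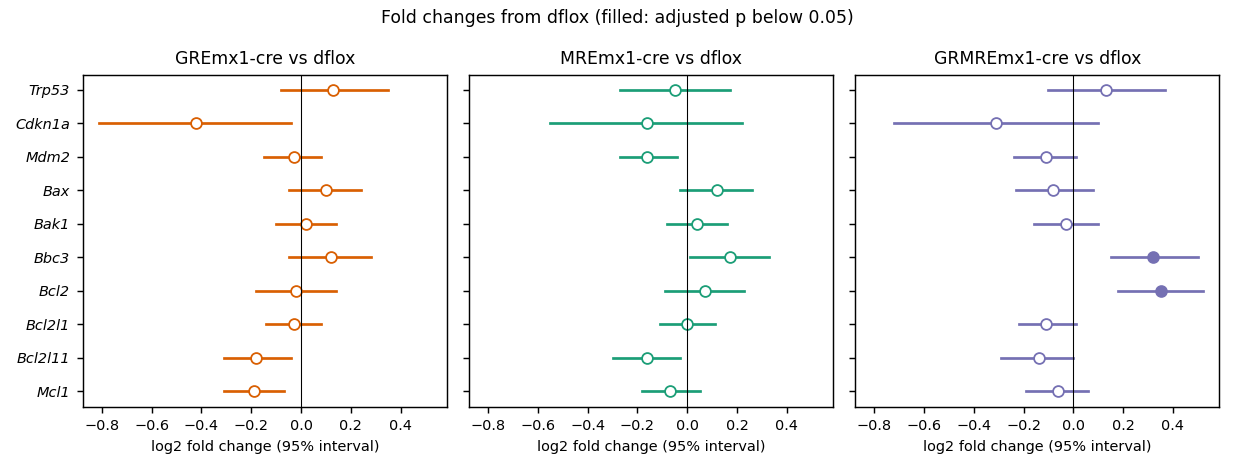
Log2 fold changes of the 10 genes from dflox with their 95% intervals (x axis), in GREmx1-cre (left), MREmx1-cre (middle) and GRMREmx1-cre (right). Filled points passed the test: Bbc3 at 0.32 and Bcl2 at 0.35 in GRMREmx1-cre, and no gene in either single knockout.

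All 10 genes had a probe well above background on 15 of 15 arrays, and 17 of their 19 probes were tested. The other 2, both for Bcl2l11, were above background on 0 arrays. A level below is log2 of the processed signal relative to the array's 75th percentile, so that 0 is the percentile itself, and it is comparable between samples for 1 probe but not between probes. The 75th percentile lay between 821 and 1027 intensity units and 28083 to 30206 probes were well above background per array. Every slide held a single genotype, and the effects of slide and genotype cannot be told apart here. The targeted gene Nr3c1 fell by 2.24 on the log2 scale in GREmx1-cre (adjusted p = 1.36e-08) and by 1.64 in GRMREmx1-cre (adjusted p = 7.42e-07) and rose by 0.54 in MREmx1-cre (adjusted p = 0.00165). Nr3c2 had log2 fold changes of -0.11 in MREmx1-cre (adjusted p = 0.48), -0.31 in GRMREmx1-cre (adjusted p = 0.0394, turned to 0.96 with normexp) and 0.42 in GREmx1-cre (adjusted p = 0.0212). Those 2 calls were lost in 6 and 3 of the 15 fits that leave out an array, and the other Nr3c2 probes read -0.77 and -0.38 in MREmx1-cre (adjusted p = 0.108 and 0.268). The files do not place these probes in or outside the deleted exons, so the Nr3c2 values do not check the labels. Of 11 corticosteroid-induced genes tested, 3 fell in GREmx1-cre, 6 in MREmx1-cre and 9 in GRMREmx1-cre, and none rose. Fkbp5, a chaperone gene that both receptors induce, fell by 1.83 in GRMREmx1-cre and by 1.48 in MREmx1-cre, although its call was lost in both with normexp. In GREmx1-cre Fkbp5 did not fall, at a mean level of -1.08 against -1.44 in dflox. Under normexp, a model-based subtraction of local background, 61.8% of all genes passed in GRMREmx1-cre against dflox with a median log2 fold change of 0.42, against 16.3% and 0.03 as reported, and 0.0569% passed in GREmx1-cre and 0.459% in MREmx1-cre against dflox. Bcl2 (0.22) and Bbc3 (0.14) then stood below that median and did not pass, and Bax, Bcl2l1 and Mcl1 passed as lower.

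Reference promoters, from RefSeq on build GRCm38.p6, matched all 10 genes, in 16 windows of 300 bases that run from 250 before to 50 after a start. The array design itself names the older build mm9, whose coordinates were not used. Bcl2 and Bbc3 are shown because they are the genes that rose in GRMREmx1-cre, and Mdm2 because 1 of its probes fell there and its window holds a p53 motif. Capitals mark a p53 decamer, the unit that is repeated in a p53 response element.
Bcl2 (chr1:106714241-106714540, minus strand): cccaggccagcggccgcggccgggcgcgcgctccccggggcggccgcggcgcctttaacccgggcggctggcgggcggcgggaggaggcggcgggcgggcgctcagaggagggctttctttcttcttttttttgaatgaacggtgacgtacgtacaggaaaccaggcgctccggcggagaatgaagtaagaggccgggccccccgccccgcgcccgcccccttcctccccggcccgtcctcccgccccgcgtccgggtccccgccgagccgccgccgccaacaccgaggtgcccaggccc
Bbc3 (chr7:16309333-16309632, plus strand, the first of 3 starts): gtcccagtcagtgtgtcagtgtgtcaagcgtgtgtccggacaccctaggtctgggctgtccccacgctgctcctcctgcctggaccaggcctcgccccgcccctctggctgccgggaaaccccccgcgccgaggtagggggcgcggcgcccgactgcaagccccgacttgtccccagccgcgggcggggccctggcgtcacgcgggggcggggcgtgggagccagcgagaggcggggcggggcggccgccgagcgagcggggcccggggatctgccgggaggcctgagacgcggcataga
Mdm2 (chr10:117710709-117711008, minus strand): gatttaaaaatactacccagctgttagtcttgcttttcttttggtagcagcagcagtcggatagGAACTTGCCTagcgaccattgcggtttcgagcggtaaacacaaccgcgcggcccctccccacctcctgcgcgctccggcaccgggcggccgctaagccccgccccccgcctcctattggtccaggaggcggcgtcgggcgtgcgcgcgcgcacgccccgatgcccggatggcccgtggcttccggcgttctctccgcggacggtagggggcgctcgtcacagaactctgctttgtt
The decamer in Mdm2, GAACTTGCCT, begins at position -186 relative to the start. The p53 decamer, searched with its degenerate letters on a pattern that reads alike on both strands, was found in 4 of the 16 windows, those of Bax, Cdkn1a, Mdm2 and Trp53, and in 8.36% of all 32851 mouse promoter windows. None of the Bcl2 or Bbc3 windows held it. The corticosteroid receptor hexamer AGAACA, or TGTTCT on the other strand, was in 0 of the 16 windows and in 19% of all windows. Of the windows shown, those of Bcl2 and Bbc3 were 76% G and C each and that of Mdm2 64.7%, and the other 2 Bbc3 windows were 74.7% and 78%. A match is a description of these letters and not a site of binding.

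Trp53 did not pass the test in any comparison. Its level was 0.28, 0.50, 0.60 and 0.78 on the GREmx1-cre arrays, 0.34, 0.25, 0.40 and 0.45 on the MREmx1-cre arrays and 0.40, 0.63 and 0.60 on the GRMREmx1-cre arrays, against 0.37, 0.30, 0.36 and 0.60 on the dflox arrays. The groups overlapped throughout, with the widest spread in GREmx1-cre. Log2 fold changes from dflox were 0.13 in GREmx1-cre (95% interval -0.08 to 0.35), -0.05 in MREmx1-cre (-0.27 to 0.17) and 0.13 in GRMREmx1-cre (-0.10 to 0.37), with adjusted p of 0.511, 0.818 and 0.451. A second Trp53 probe, spotted 10 times per array, gave -0.04, 0.09 and 0.03 in the same order. Transcript levels do not report p53 protein, whose amount and activity are set largely after translation.

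Cdkn1a, which encodes the cell-cycle inhibitor p21 and is the best-known p53 target, was lowest in GREmx1-cre without passing the test. Its level was -2.49, -2.19, -2.04 and -2.21 in GREmx1-cre, -2.31, -1.64, -1.57 and -2.37 in MREmx1-cre and -2.12, -2.28 and -1.96 in GRMREmx1-cre, against -1.90, -1.69, -1.68 and -1.96 in dflox. All 4 GREmx1-cre arrays lay below all dflox arrays, the GRMREmx1-cre arrays did so by less than the rounding, and the MREmx1-cre arrays fell into a high and a low pair. The log2 fold change from dflox was -0.42 ± 0.176 (SE) in GREmx1-cre (95% interval -0.81 to -0.04, adjusted p = 0.211), -0.16 in MREmx1-cre (adjusted p = 0.64) and -0.31 in GRMREmx1-cre (adjusted p = 0.305). Cdkn1a is spotted 10 times per array. The median SD between those spots was 0.0762, and the SD between arrays within groups was 0.263, the widest of the 6 such probes.

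Mdm2, the ligase that degrades p53 and is itself a p53 target, passed the test by 1 of its 2 probes. The probe used for the gene, with 1 spot, stood at 0.30, 0.36, 0.35 and 0.39 in GREmx1-cre, 0.14, 0.27, 0.24 and 0.23 in MREmx1-cre and 0.25, 0.20 and 0.35 in GRMREmx1-cre, against 0.40, 0.25, 0.43 and 0.44 in dflox. Dflox replicate 2 was as low as the knockouts. No fold change from dflox passed: -0.16 ± 0.0535 in MREmx1-cre (adjusted p = 0.0975), -0.11 in GRMREmx1-cre (adjusted p = 0.223) and -0.03 in GREmx1-cre. Without dflox replicate 2, MREmx1-cre passed at -0.20 (adjusted p = 0.0394). In MREmx1-cre against GREmx1-cre the arrays did not overlap (-0.13, adjusted p = 0.165).

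The Mdm2 probe spotted 10 times, dimmer, read lower in GRMREmx1-cre. Its level was -2.63, -2.65, -2.64 and -2.48 in GREmx1-cre, -2.86, -2.85, -2.65 and -2.81 in MREmx1-cre and -2.77, -3.03 and -3.02 in GRMREmx1-cre, against -2.44, -2.57, -2.64 and -2.43 in dflox. All GRMREmx1-cre arrays lay below all dflox arrays and all GREmx1-cre arrays, and the MREmx1-cre arrays lay below the dflox arrays too, the nearest pair being -2.65 and -2.64. In the fit over all 30873 probes, with p adjusted over those probes, it fell by 0.42 on the log2 scale in GRMREmx1-cre against dflox (adjusted p = 0.00445) and by 0.34 against GREmx1-cre (adjusted p = 0.0143), and was -0.27 in MREmx1-cre against dflox (adjusted p = 0.0558). With normexp background correction these GRMREmx1-cre values turned to 0.65 and 0.68. Without GRMREmx1-cre replicate 2 or 3 the call against GREmx1-cre was lost at -0.30 each (adjusted p = 0.0705 and 0.0679), while leaving out any array kept the call against dflox (-0.50 to -0.38). The MREmx1-cre value passed at -0.31 without MREmx1-cre replicate 3 (adjusted p = 0.0408) or dflox replicate 3 (adjusted p = 0.0462) and at -0.27 without GRMREmx1-cre replicate 1 (adjusted p = 0.0374). Averaging both probes gave -0.27 for Mdm2 in GRMREmx1-cre (adjusted p = 0.00783).

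**Figure D2:**
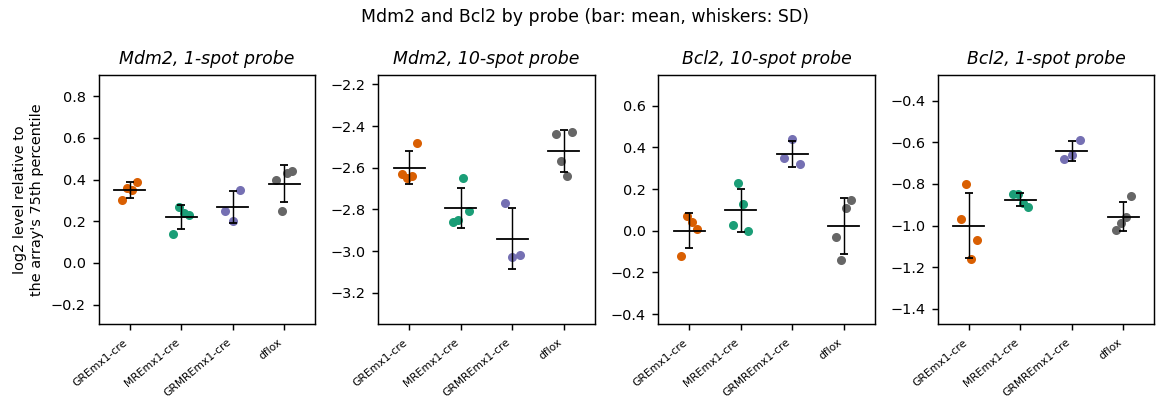
Levels by array (log2 relative to the array's 75th percentile) of both Mdm2 and both Bcl2 probes in GREmx1-cre, MREmx1-cre, GRMREmx1-cre and dflox, with group mean (bar) and SD (whiskers). The Mdm2 probe with 10 spots is below dflox on all GRMREmx1-cre arrays and its 1-spot probe is not, whereas both Bcl2 probes are above dflox on all GRMREmx1-cre arrays.

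Bax, a pore-forming effector, did not pass against dflox in any knockout. It stood at 1.19, 1.20, 1.32 and 1.29 in GREmx1-cre, 1.09, 1.33, 1.37 and 1.28 in MREmx1-cre and 1.15, 1.12 and 0.96 in GRMREmx1-cre, against 1.14, 1.22, 1.10 and 1.16 in dflox. The single knockouts leaned above dflox and the double knockout below it, with overlap in each case. Log2 fold changes were 0.10 in GREmx1-cre, 0.12 in MREmx1-cre and -0.08 in GRMREmx1-cre (adjusted p = 0.47, 0.334 and 0.508). Against GREmx1-cre, all GRMREmx1-cre arrays were lower (-0.17 ± 0.071, adjusted p = 0.118). With normexp, Bax passed as lower in GRMREmx1-cre against dflox (-0.26, adjusted p = 0.0467), GREmx1-cre (-0.34, adjusted p = 0.0174) and MREmx1-cre (-0.37, adjusted p = 0.0172). The interaction, the change in GRMREmx1-cre from GREmx1-cre minus that in MREmx1-cre from dflox, was -0.29 ± 0.0968 for Bax (adjusted p = 0.153).

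Bak1, the other effector, did not pass in any comparison. It stood at -0.88 to -0.71 in GREmx1-cre, -0.91 to -0.69 in MREmx1-cre and -0.90 to -0.83 in GRMREmx1-cre, against -0.90 to -0.79 in dflox. Its intervals in the 3 comparisons with dflox lay within -0.16 and 0.16. The second Bak1 probe read 0.23 higher on the log2 scale in GREmx1-cre than in dflox, which did not pass (adjusted p = 0.139).

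Bbc3, the gene of the BH3-only protein PUMA, rose in GRMREmx1-cre. Its level was 1.92, 1.85 and 1.64 in GRMREmx1-cre, 1.62, 1.48, 1.57 and 1.71 in GREmx1-cre and 1.51, 1.68, 1.73 and 1.67 in MREmx1-cre, against 1.48, 1.59, 1.36 and 1.5 in dflox. Every GRMREmx1-cre array was above every dflox array, but replicate 3 lay within the range of both single knockouts. Bbc3 averaged 1.80 ± 0.143 in GRMREmx1-cre (SD, n = 3) and 1.48 ± 0.0959 in dflox (SD, n = 4), a log2 fold change of 0.32 ± 0.0813 (95% interval 0.15 to 0.50, adjusted p = 0.0169). The single knockouts did not pass, at 0.12 in GREmx1-cre (adjusted p = 0.441) and 0.17 in MREmx1-cre (adjusted p = 0.21). Neither did GRMREmx1-cre against GREmx1-cre (0.21, adjusted p = 0.103), which passed at 0.29 without GRMREmx1-cre replicate 3 (adjusted p = 0.0487), nor against MREmx1-cre (0.15, adjusted p = 0.365). The interaction was 0.04, with a 95% interval of -0.20 to 0.28. The Bbc3 call against dflox was lost without GRMREmx1-cre replicate 1 (0.27, adjusted p = 0.0768) or 2 (0.30, adjusted p = 0.0709), with median scaling (0.24, adjusted p = 0.087), with normexp (0.14, adjusted p = 0.33) and with only the compared groups in the fit (0.32, adjusted p = 0.0576). A single spot per array measured Bbc3.

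Bcl2l11, the gene of the BH3-only protein BIM, was lower on average in every knockout without passing. It stood at -1.20, -1.15, -1.12 and -1.15 in GREmx1-cre, -1.07, -1.04, -1.21 and -1.24 in MREmx1-cre and -1.18, -1.02 and -1.17 in GRMREmx1-cre, against -0.98, -0.97, -1.10 and -0.87 in dflox. The GREmx1-cre arrays lay just below all dflox arrays, and dflox replicate 3 lay within the other knockouts. Log2 fold changes were -0.18 ± 0.0618 in GREmx1-cre (adjusted p = 0.141), -0.16 in MREmx1-cre (adjusted p = 0.141) and -0.14 in GRMREmx1-cre (adjusted p = 0.171). These comparisons share the dflox arrays, and log2 differences between the knockouts were 0.03 or smaller.

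Bcl2, the founding anti-apoptotic member, rose in GRMREmx1-cre. Its 10-spot probe stood at 0.35, 0.44 and 0.32 in GRMREmx1-cre, -0.12, 0.07, 0.04 and 0.01 in GREmx1-cre and 0.03, 0.23, 0.13 and -0.00 in MREmx1-cre, against -0.03, -0.14, 0.11 and 0.15 in dflox. All 3 GRMREmx1-cre arrays lay above the other 12, and the other groups overlapped. Bcl2 averaged 0.37 ± 0.0616 in GRMREmx1-cre (SD, n = 3) and 0.02 ± 0.134 in dflox (SD, n = 4), a log2 fold change of 0.35 ± 0.0795 (95% interval 0.18 to 0.52). GRMREmx1-cre was 0.37 ± 0.0795 above GREmx1-cre and, without passing, 0.27 above MREmx1-cre (adjusted p = 0.0893). The single knockouts did not pass against dflox, at -0.02 in GREmx1-cre (95% interval -0.18 to 0.14) and 0.07 in MREmx1-cre (-0.09 to 0.23). The interaction, 0.30 ± 0.108, had an adjusted p of 0.187, so the joint loss was not shown to exceed the sum of the single losses.

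The second Bcl2 probe, with 1 spot, matches another RefSeq transcript of the gene and moved the same way. It read -0.68, -0.66 and -0.59 in GRMREmx1-cre, -0.97, -0.80, -1.16 and -1.07 in GREmx1-cre and -0.85, -0.85, -0.89 and -0.91 in MREmx1-cre, against -1.02, -0.99, -0.96 and -0.86 in dflox. Again all 3 GRMREmx1-cre arrays lay above the rest. Adjusted over all probes, it rose by 0.31 against dflox (adjusted p = 0.0136) and by 0.35 against GREmx1-cre (adjusted p = 0.00689). The call of the 10-spot probe against dflox was lost without GRMREmx1-cre replicate 2 (0.31, adjusted p = 0.0519), with median scaling (0.27, adjusted p = 0.0918) and with normexp (0.22, adjusted p = 0.0552), and that against GREmx1-cre with normexp (0.22, adjusted p = 0.0555). The 1-spot probe lost its call against dflox without GRMREmx1-cre replicate 3 (0.28, adjusted p = 0.0573) and with median scaling (0.23, adjusted p = 0.1). The spots of the 10-spot probe differed by a median SD of 0.0583 within an array and arrays of a group by an SD of 0.102.

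**Figure D3:**
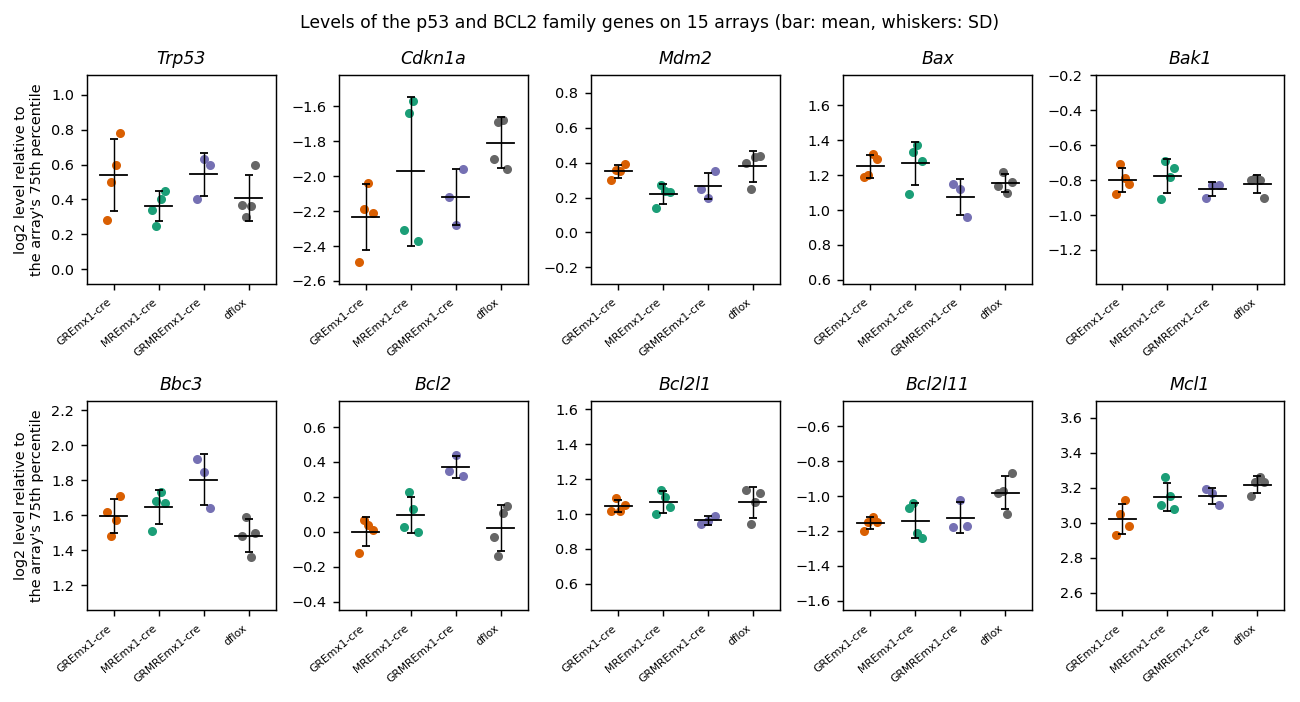
Levels of the 10 genes on all 15 arrays (log2 relative to the array's 75th percentile) in GREmx1-cre, MREmx1-cre, GRMREmx1-cre and dflox, with group mean (bar) and SD (whiskers). Bcl2 is above the other 12 arrays on all 3 GRMREmx1-cre arrays, and Cdkn1a is below dflox on all 4 GREmx1-cre arrays.

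Bcl2l1, whose product BCL-XL is the main survival factor of mature neurons in this family, did not pass in any comparison. It stood at 1.02 to 1.09 in GREmx1-cre, 1.0 to 1.14 in MREmx1-cre and 0.94 to 0.99 in GRMREmx1-cre, against 0.94 to 1.14 in dflox. The GRMREmx1-cre arrays lay below all arrays of both single knockouts and within the dflox range. Log2 fold changes in GRMREmx1-cre were -0.11 from dflox (adjusted p = 0.215), -0.08 from GREmx1-cre (adjusted p = 0.364) and -0.11 from MREmx1-cre (adjusted p = 0.346). With normexp this probe passed as lower, at -0.27 from dflox (adjusted p = 0.027) and -0.27 from MREmx1-cre (adjusted p = 0.0281). A dimmer Bcl2l1 probe, at -2.06 to -1.93 in GRMREmx1-cre and -1.75 to -1.5 in GREmx1-cre, fell by 0.32 between them (adjusted p = 0.0204 over all probes). That call was lost without GREmx1-cre replicate 4 (-0.27, adjusted p = 0.0508), GRMREmx1-cre replicate 1 (-0.29, adjusted p = 0.0701) or GRMREmx1-cre replicate 2 (-0.33, adjusted p = 0.0616), and normexp turned it to 0.36. Against dflox the dimmer probe was -0.26 in GRMREmx1-cre (adjusted p = 0.0558), and it passed with median scaling (-0.34, adjusted p = 0.0324) and without GREmx1-cre replicate 4 or MREmx1-cre replicate 1 or 4 (-0.26 each, adjusted p = 0.0408, 0.034 and 0.0448). The third Bcl2l1 probe did not pass, at 0.03 in GRMREmx1-cre against GREmx1-cre (adjusted p = 0.848), but with normexp it passed at 0.98 (adjusted p = 0.0202), opposite in sign to the brightest probe.

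Mcl1, a short-lived anti-apoptotic member, was lowest in GREmx1-cre without passing. It stood at 2.93, 3.05, 3.13 and 2.98 in GREmx1-cre, 3.10, 3.26, 3.15 and 3.08 in MREmx1-cre and 3.19, 3.17 and 3.10 in GRMREmx1-cre, against 3.15, 3.23, 3.26 and 3.23 in dflox. Every GREmx1-cre array lay below every dflox array, the nearest pair being 3.13 and 3.15. The log2 fold change was -0.19 ± 0.0539 (95% interval -0.31 to -0.07, adjusted p = 0.0783) in GREmx1-cre, the smallest adjusted p of the 10 genes there. It was -0.07 in MREmx1-cre and -0.06 in GRMREmx1-cre (adjusted p = 0.521 and 0.508), and the GRMREmx1-cre value was -0.34 with normexp (adjusted p = 0.0324). Mcl1 passed as higher in GRMREmx1-cre than in GREmx1-cre with quantile normalization (0.18, adjusted p = 0.0318). The second Mcl1 probe gave -0.04 in GREmx1-cre (adjusted p = 0.902) and overlapped dflox.

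Other genes of the pathway were read from 6 lists. Of the 27 further p53 target genes tested, of 30 listed, 4 rose and 2 fell in GRMREmx1-cre against dflox (median log2 fold change 0.06, against 0.03 over all genes). These 6 of 27 stand beside 16.3% of all genes that passed in that comparison. The DNA-damage gene Gadd45a rose by 0.48, the death-domain gene Pidd1 by 0.61 and the TRAIL receptor gene Tnfrsf10b by 1.47, while the sestrin gene Sesn1, whose product restrains growth signalling, fell by 0.62 (adjusted p = 0.0021, 0.00201, 0.00201 and 0.000342). In MREmx1-cre none rose and 2 fell, Sesn1 by 0.46 and Trp53inp1 by 0.24 (limma, adjusted p = 0.00316 and 0.0359), beside 6.81% of all genes that passed there. In GREmx1-cre none passed (limma, 3 with an unadjusted p below 0.05), beside 3.15% of all genes. Sesn1 stood at 2.47, 2.56 and 2.55 in GRMREmx1-cre and 2.52, 2.78, 2.68 and 2.76 in MREmx1-cre, against 3.08, 3.23, 3.02 and 3.26 in dflox, with no overlap, and its other tested probes read -0.60 and -0.73 in GRMREmx1-cre. Gadd45a stood at -0.65, -0.52 and -0.40 in GRMREmx1-cre and -1.15, -1.18, -1.07 and -1.18 in GREmx1-cre, against -1.07, -1.02, -0.95 and -0.95 in dflox. The Sesn1 and Gadd45a calls in GRMREmx1-cre against dflox kept their direction and call under every alternative run. Tnfrsf10b was dim, at a mean level of -4.33 in GRMREmx1-cre and -5.80 in dflox, and was well above background on 3 of 4 dflox arrays. The other probes of Tnfrsf10b and Pidd1 did not pass, at -0.52 for Tnfrsf10b and 0.17 and 0.10 for Pidd1, and both calls were lost in the mean of a gene's probes. Trp53inp1 lost its call when any MREmx1-cre array or dflox replicate 2, 3 or 4 was left out (-0.26 to -0.21). The named targets did not share a direction.

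Of 22 p53 regulators and relatives tested, 3 rose and 3 fell in GRMREmx1-cre against dflox (median -0.05), beside 16.3% of all genes. Trp73, a p53 relative, rose by 0.65 and Ppp1r13l (iASPP), an inhibitor of p53, by 0.51, while the p53 co-activators Trp53bp2 (ASPP2) and Ppp1r13b (ASPP1) fell by 0.30 and 0.36. A second Trp73 probe read -0.71 in GRMREmx1-cre (adjusted p = 0.053), and the mean of its probes turned Trp73 to -0.03. In GREmx1-cre, Ppp1r13l rose by 0.34 and Trp73 by 0.32, and the checkpoint kinase gene Chek1 fell by 0.62 (adjusted p = 0.0308, 0.0224 and 0.0133; median of the list -0.01), beside 3.15% of all genes. The Chek1 call was lost with normexp (-0.05, adjusted p = 1), with an intensity trend and robust fit (-0.62, adjusted p = 0.059) and with only the compared groups in the fit (-0.62, adjusted p = 0.0711). Each of the Trp73 and Ppp1r13l calls in GREmx1-cre was lost without GREmx1-cre replicate 3, GREmx1-cre replicate 4, dflox replicate 2 or dflox replicate 3, that of Trp73 also without GREmx1-cre replicate 2 and that of Ppp1r13l without GREmx1-cre replicate 1 (0.28 to 0.38 for Trp73, 0.31 to 0.38 for Ppp1r13l). In MREmx1-cre Trp53bp2 fell by 0.21 (adjusted p = 0.0305), a call lost without MREmx1-cre replicate 1, 2 or 4 or dflox replicate 1, 2 or 4 (-0.23 to -0.18). The Ppp1r13b call in GRMREmx1-cre against dflox was lost with only the compared groups in the fit (adjusted p = 0.0691). Of the 5 other cyclin-dependent kinase inhibitor genes, none passed against dflox in any knockout (limma, 1, 0 and 1 with an unadjusted p below 0.05 in GREmx1-cre, MREmx1-cre and GRMREmx1-cre). Over all genes, 3.15%, 6.81% and 16.3% passed in those comparisons.

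Among the other BH3-only and BH3-like genes, 8 of 9 were tested. Against dflox, 1 of the 8 rose in GRMREmx1-cre, beside 16.3% of all genes that passed. In MREmx1-cre 1 rose and 1 fell, beside 6.81% of all genes. None passed in GREmx1-cre (limma, 1 with an unadjusted p below 0.05), beside 3.15% of all genes. Hrk, a BH3-only gene of neurons, rose by 0.71 ± 0.107 in GRMREmx1-cre (adjusted p = 0.00089) and by 0.45 in MREmx1-cre (adjusted p = 0.0185). It stood at -3.12, -3.04 and -3.14 in GRMREmx1-cre, -3.37, -3.30, -3.30 and -3.50 in MREmx1-cre and -3.55, -3.71, -4.06 and -3.66 in GREmx1-cre, against -3.81, -3.68, -3.99 and -3.76 in dflox. All GRMREmx1-cre and MREmx1-cre arrays lay above all dflox arrays, and GREmx1-cre overlapped dflox. The GRMREmx1-cre call was kept under every alternative run (0.61 to 1.28), and the MREmx1-cre call was lost without MREmx1-cre replicate 2 or 3 (0.39 to 0.49 over the arrays left out) and with normexp (0.27). Becn1, an autophagy gene with a BH3 domain, fell by 0.21 in MREmx1-cre, a call lost in 12 of the 15 fits that leave out an array. The list's median was -0.14 in GRMREmx1-cre and -0.11 in MREmx1-cre, opposite in sign to Hrk.

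Of 6 other multidomain BCL2 genes tested, of 10 listed, only Bcl2a1b passed in GRMREmx1-cre against dflox (0.52 ± 0.151, limma, adjusted p = 0.0337), beside 16.3% of all genes. None passed in either single knockout (limma, 1 with an unadjusted p below 0.05 in GREmx1-cre and 0 in MREmx1-cre), beside 3.15% and 6.81% of all genes. Bcl2a1b belongs to a family of near-identical copies that a probe may not tell apart, and its call was lost without GRMREmx1-cre replicate 2 or 3 or any dflox array (0.39 to 0.68). That call was also lost with median scaling (0.44, limma, adjusted p = 0.0812) and with no filter on dim probes (0.52, adjusted p = 0.0515). Of 21 caspase, apoptosome and IAP genes, 2 rose and none fell in GRMREmx1-cre against dflox (median 0.03), beside 16.3% of all genes that passed. The 2 that rose were Birc5 (survivin) by 0.44 (limma, adjusted p = 0.0084), kept under every alternative run, and Birc6 by 0.24 (adjusted p = 0.0292), lost without any one GRMREmx1-cre array or dflox replicate 4 (0.18 to 0.27). The Birc6 call was also lost with median scaling (0.16, limma, adjusted p = 0.101) and with only the compared groups in the fit (0.24, adjusted p = 0.0797). Birc5 stood at -1.10, -1.0 and -1.21 in GRMREmx1-cre, against -1.55, -1.47, -1.42 and -1.74 in dflox. No caspase gene passed in a comparison with dflox. Of the 21 genes, 2 had an unadjusted p below 0.05 in GREmx1-cre, 3 in MREmx1-cre and 6 in GRMREmx1-cre (limma). None of the 21 passed in GREmx1-cre or MREmx1-cre, beside 3.15% and 6.81% of all genes.

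**Figure D4:**
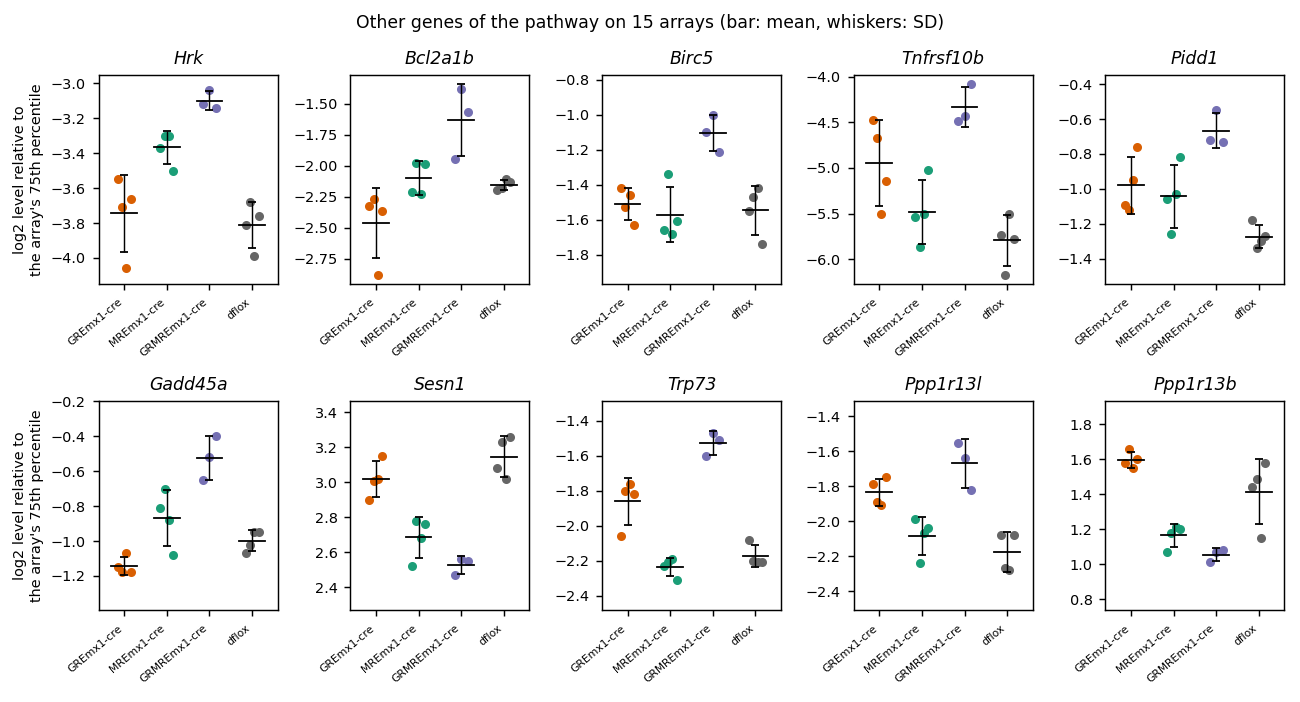
Levels by array (log2 relative to the array's 75th percentile) of 10 other genes of the pathway in GREmx1-cre, MREmx1-cre, GRMREmx1-cre and dflox, with group mean (bar) and SD (whiskers). Hrk is above all dflox arrays and Sesn1 below them in MREmx1-cre and GRMREmx1-cre, and Gadd45a and Birc5 are above dflox in GRMREmx1-cre.

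Between knockouts, these calls held whichever array was left out. Against GREmx1-cre, Bcl2a1b was 0.83, Hrk 0.65, Gadd45a 0.62, Ddit4l 0.58, Chek1 0.55 and Trp73 0.33 higher on the log2 scale in GRMREmx1-cre, and Ppp1r13b fell by 0.54, Sesn1 by 0.49 and Trp53bp2 by 0.29. The mean of its probes turned Trp73 to -0.15 in that comparison, and with only the compared groups in the fit its call was lost (adjusted p = 0.052). Chek1 was above background on 3 of 4 GREmx1-cre arrays, and its call was lost with quantile normalization (0.41, adjusted p = 0.0926) and with an intensity trend and robust fit (0.55, adjusted p = 0.0505). Against MREmx1-cre, Trp73 was 0.71 higher in GRMREmx1-cre, a call lost in the mean of its probes (0.25, adjusted p = 0.33). In MREmx1-cre against GREmx1-cre, Chek1 was 0.55 higher, Ppp1r13b fell by 0.43, Trp73 by 0.38 and Sesn1 by 0.33. The Sesn1 call there was lost with median scaling (-0.30, adjusted p = 0.0748) and with only the compared groups in the fit (-0.33, adjusted p = 0.0568). With normexp, every call named here for a gene of the 6 lists was lost in GREmx1-cre against dflox, MREmx1-cre against dflox and MREmx1-cre against GREmx1-cre, where Chek1 read 0.08. Other calls were lost when a single array was left out. In GRMREmx1-cre against GREmx1-cre these were Birc5 (0.41, lost in 1 of 15 such fits), the inhibitor of the apoptotic DNase Dffa (-0.25, 3 of 15) and Cdkn1b (-0.16, 5 of 15). In GRMREmx1-cre against MREmx1-cre they were Ppp1r13l (0.42, 2 of 15), Birc5 (0.47, 5 of 15), Tnfrsf10b (1.15, 6 of 15) and Gadd45a (0.35, 11 of 15). In MREmx1-cre against GREmx1-cre they were Ddit4l (0.40, 1 of 15), Hrk (0.38, 5 of 15), the p53-opposing phosphatase gene Ppm1d (0.27, 5 of 15) and Gadd45a (0.27, 11 of 15). No gene of the 6 lists passed the interaction, beside 1.29% of all genes. There, 3 of the 27 target genes and 6 of the 22 regulators had an unadjusted p below 0.05 (limma). So did 4 of the 21 caspase, apoptosome and IAP genes, 1 of the 8 BH3-only and BH3-like genes and 1 of the 6 multidomain genes. Of the 5 kinase inhibitor genes, 0 did.

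Markers of some cell types moved with genotype and those of others did not. Over all genes, 16.3% passed in GRMREmx1-cre against dflox, 6.81% in MREmx1-cre and 3.15% in GREmx1-cre. In bulk tissue, fewer cells of a type and less RNA per cell cannot be told apart. Beside the rise of Bcl2, Bbc3, Hrk and Birc5 in GRMREmx1-cre, 7 of 10 microglia markers were higher than in dflox (4 in MREmx1-cre, 1 in GREmx1-cre), with a summed level of 47.2 to 55.4 times the array's 75th percentile in GRMREmx1-cre, 44.9 to 47.4 in MREmx1-cre and 40.1 to 43.7 in GREmx1-cre, against 37 to 41.1 in dflox. Astrocyte markers were higher for 3 of 6 in GRMREmx1-cre, at 104 to 117, against 94.9 to 100 in dflox. Excitatory neuron markers were lower for 2 of 5, at 94.9 to 111 in GRMREmx1-cre, against 114 to 143 in dflox. Dentate granule cell markers were lower for 6 of 9 in GRMREmx1-cre, at 11 to 13.8, and for 4 of 9 in MREmx1-cre, at 12.3 to 15.4, against 19.6 to 29 in dflox. CA2 pyramidal cell markers were lower for 4 of 6 in GRMREmx1-cre, at 31.4 to 36.9, and for 4 of 6 in MREmx1-cre, at 32 to 36.8, against 45.9 to 48.5 in dflox. CA3 markers were lower for 3 of 5 in GRMREmx1-cre, at 19.2 to 22.5, and for 2 of 5 in MREmx1-cre, at 20.7 to 21.4, against 23.5 to 29.4 in dflox. Immature neuron and progenitor markers were higher for 2 of 7, at 2.89 to 2.98 in GRMREmx1-cre, against 2.19 to 2.61 in dflox. None of 6 endothelium markers passed (limma, 2 with an unadjusted p below 0.05), at 21.3 to 25.3 in GRMREmx1-cre, against 18.3 to 19.7 in dflox. All tested markers of these 8 lists were detected on 15 of 15 arrays, apart from Iyd of CA3 (6) and Top2a of progenitors (14); their part in the levels of Bcl2, Bbc3 and the listed genes was not tested. Choroid plexus markers varied most, from 1.4 to 60.4 in MREmx1-cre and 24.6 to 69.6 in dflox, and none of the 6 tested passed. None of 6 GABAergic interneuron or 6 oligodendrocyte markers passed in any comparison. Of 6 CA1 pyramidal cell markers, 1 was higher and 2 were lower in GRMREmx1-cre, at 107 to 112, against 95.5 to 121 in dflox. Of 6 fibroblast markers, 1 was higher and 2 were lower in GRMREmx1-cre, at 5.79 to 30.6, against 13.5 to 23.7 in dflox.

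Over the 15 arrays and 15869 genes with a symbol, the levels most like those of Bcl2 were those of Pik3ap1 (Pearson r = 0.924), Stat5b (0.923) and Stk17b (0.917). With the group means removed these correlations were 0.781, 0.834 and 0.706. For Bbc3 they were Olfr1395 (0.911), Olfr1131 (0.893) and Fes (0.875), and 0.854, 0.758 and 0.65 with the group means removed. The arrays share their scaling and genotype, so these values are a description.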

How the data were processed

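The submitters' processing notes name Agilent Feature Extraction 12.0 as the software behind the 15 arrays. The deposited value of each spot is an intensity from which that software had already taken the background, per the file headers, and the deposited flags (unit other) mark spots that are outliers or well above background. The deposited series table held the same intensity values as the scanner files. The processed signal was scaled to each array's 75th percentile over 43379 spots that are no controls, the 1281 spots with outlier flags were left out, log2 was taken and spots of a probe were averaged. Probes were named through their RefSeq accession (28223 with 1 symbol, 0 with several, 12951 with none). A probe was tested if 3 or more arrays read it well above background (30873 probes), and the brightest probe stood for a gene (22864 genes, 15939 with a symbol). limma 3.58.1 in R 4.3.3 was fitted with group means over all 15 arrays, with Benjamini-Hochberg adjustment over all genes and a threshold of 0.05. The same model over all tested probes gave the values of single probes. The script was tested on simulated data. Precision is limited by the number of arrays.

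The members and gene lists were chosen with earlier results of these data known. Named were all 10 members, Nr3c1 and Nr3c2, up to 4 genes per list with the smallest adjusted p among those past the threshold in a comparison, and the 3 genes most correlated with each member that passed. Alternatives were quantile and median scaling, normexp, filters on dim probes, outlier spots kept, the series table, the mean of a gene's probes, the replicate number as a block, an intensity trend with robust fit, only the compared groups, and each array left out. The files hold no mean signal, so normexp (offset 50) used the median signal and median background. Every alternative of the listed genes and of single probes was added after seeing the data. Figures were drawn with matplotlib 3.10.9.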

Additional observations from a re-analysis of the deposited data

Results flagged for a closer look

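The level of Bak1 on dflox replicate 4, -0.90, stood apart from the other 3 dflox arrays, at -0.80 to -0.79. The gap was 0.881 of the group's range, above Dixon's 95% critical value for 4 samples. It was the only such value in 30 groups of 4 arrays over the 10 genes, where chance gives about 1 in 20. No Bak1 comparison with dflox passed with or without that array.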

How the results depend on the processing

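Of 1810 recomputed fold changes of the 10 genes, 9 lost a call, 13 gained one and none that was called changed sign, while 43 values changed sign that passed neither way. In GRMREmx1-cre against dflox the count of the 10 genes that passed was 2, and it was 0 with median scaling, 1 with only the compared groups and 0 to 2 with an array left out. It was 3 with normexp, namely Bax, Bcl2l1 and Mcl1, all lower, and 3 with the mean of all probes, which added Mdm2 as lower. In GRMREmx1-cre against GREmx1-cre the count was 1, and it was 2 with quantile normalization, 2 with normexp, 2 with the mean of all probes and 1 to 2 with an array left out. The normexp calls there were Bax as lower and Cdkn1a as higher (0.67, adjusted p = 0.0325), beside 61.6% of all genes. In GRMREmx1-cre against MREmx1-cre it was 0, and 2 with normexp, beside 59.8% of all genes. In MREmx1-cre against dflox it was 0, and 1 with the mean of all probes and 0 to 1 with an array left out. Under normexp, Nr3c2 turned to 0.96, 0.63 and 1.01 in GRMREmx1-cre against dflox, GREmx1-cre and MREmx1-cre and to 0.67 in the interaction. The 10-spot Mdm2 probe turned to 0.65, 0.68 and 0.82 in the same 3 comparisons, and a Bcl2l1 probe to 0.36 and 0.53 against GREmx1-cre and MREmx1-cre. The mean of all probes turned Trp73 to -0.03 against dflox and -0.15 against GREmx1-cre, as its probes differ in sign. The cause of the others was not tested. Beside them, the background mean that normexp fitted was -30.6, -804 and -107 on the GRMREmx1-cre arrays and -0.331 to 2.42 elsewhere, and the median of all genes in GRMREmx1-cre against dflox was 0.42, against 0.03. Over all genes, 2610 rose and 1106 fell in GRMREmx1-cre against dflox, and 1539 and 1712 with median scaling.

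The labels give no source for the replicate numbers, and the reported model did not pair the samples by them. Deviations from the group mean correlated at -0.0292 to 0.196 between same-numbered arrays, above 0.1 for 6 of 21 pairs. However, 14 of 15 arrays correlated best with an array of their own number among the other groups, a likeness that the reported model leaves out. With the replicate block the counts of the 10 genes were 0, 0, 2, 1, 0, 0 and 0 in the 7 contrasts, as without it. Over all genes 3833 passed in GRMREmx1-cre against dflox with the block, against 3716. Nr3c2 did not pass with it in GRMREmx1-cre against dflox (-0.29, adjusted p = 0.0733) or in the interaction (-0.60, adjusted p = 0.064), and the dimmer Bcl2l1 probe passed against dflox (-0.21, adjusted p = 0.0325). Without the block Nr3c2 passed in both, in the interaction at -0.62 (limma, adjusted p = 0.0394). That interaction call was lost in 12 of the 15 fits that leave out an array. The 3 GRMREmx1-cre arrays, and the single spot of the brightest probe used for 6 of the genes, limit the precision.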
